A study of Bos taurus with 22 samples.

Results

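The mRNA of 9 enzymes of glycolysis and gluconeogenesis was followed in the jejunal mucosa of Holstein steers. The enzymes were HK1, HK2, HKDC1, PGM1, FBP1, PKM, PCK1, PCK2 and PDHA1. They were chosen with earlier results of these data known, and all 9 were found by symbol among the 27570 genes of the count table. Each had at least 16 counts in every steer, and each passed the filter on low counts in every comparison. The labels name the tissue jejunal mucosa, and all 22 villus enterocyte markers looked up were measured in it (23 gene entries).

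All steers were 10 to 12 months old, weighed 220.0 to 294.1 kg and received raw corn starch into the abomasum for 7 days (3.94 g daily per kg of body weight). Control steers (n = 5) were infused with water and injected under the skin with the vehicle, bovine serum albumin (BSA) in saline. GLP-2 steers (n = 5) were infused with water and injected with glucagon-like peptide 2 (GLP-2, 100 µg daily per kg of body weight), a gut hormone known for stimulating growth of the intestinal mucosa. Casein steers (n = 6) were infused with sodium caseinate (1.30 g daily per kg of body weight) and injected with vehicle, and casein + GLP-2 steers (n = 6) received caseinate and GLP-2. The injection was therefore compared between 11 GLP-2 and 11 BSA steers, and the infusion between 12 casein and 10 water steers. Mucosa was scraped from the middle of the jejunum, so 1 library is the bulk RNA of 1 steer. Levels in bulk RNA do not tell apart fewer cells of a type from less RNA per cell.

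Glycolysis splits glucose into pyruvate, and gluconeogenesis builds glucose from smaller molecules by reversing the same chain with a few enzymes of its own. Hexokinases trap glucose in the cell as glucose 6-phosphate, which phosphoglucomutase can pass towards glycogen. Pyruvate kinase closes glycolysis, and pyruvate dehydrogenase carries pyruvate into the mitochondrial citric acid cycle. Phosphoenolpyruvate carboxykinase and fructose 1,6-bisphosphatase run the chain the other way. The small intestine both absorbs glucose and uses it, and in cattle starch that leaves the rumen undigested is a source of glucose in the intestine.

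Counts per library ranged from 8809666 to 28447810 (median 12028560.5). CPM here are counts relative to the library's total after TMM scaling, and FPKM are the deposited values per kb of gene length, which were used to compare genes with each other. The libraries differed in makeup before any enzyme was considered. The villus enterocyte score, the mean log2 CPM of these markers, ranged from 5.94 to 10.3, and the summed level of the markers from 3795 to 97427 CPM in BSA steers and from 31802 to 142836 CPM in GLP-2 steers. Control replicate 5 (score 5.94) and casein replicate 1 (6.33) were the lowest. The enzymes' differences between injections are therefore given with and without both libraries, a choice made after seeing the data.

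PCK2 was the most abundant of the 9 enzymes, with 235.5 ± 121.3 FPKM (mean ± SD, n = 22). PKM followed with 89.6 ± 24.2 FPKM. FBP1 (40.2 ± 14.8 FPKM), PDHA1 (40.0 ± 10.0), HKDC1 (33.6 ± 17.8) and PGM1 (29.4 ± 12.4) followed, and neighbours among these 4 differed by less than their SD. PCK1 came next with 21.0 ± 25.3 FPKM, an SD larger than its mean. HK1 (5.32 ± 1.15 FPKM) and HK2 (5.21 ± 2.96 FPKM) were the lowest and differed by less than their SD. The steadiest enzymes were HK1, whose highest steer exceeded the lowest 2.34-fold, and PKM, with a span of 2.81-fold. The least steady was PCK1, with a span of 221-fold from 1.33 to 293 CPM.

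The genes lie on 7 chromosomes of the ARS-UCD1.2 assembly, all annotated as protein coding. HKDC1 (ENSBTAG00000033398) spans 25595174 to 25634958 on the plus strand of chromosome 28. HK1 (ENSBTAG00000012380) lies 59187 bases further on the same strand, from 25694146 to 25769790. HK2 (ENSBTAG00000013108) lies apart from both, at 9743172 to 9810098 on the minus strand of chromosome 11. Chromosome 10 carries PCK2 (ENSBTAG00000011934, 21036261 to 21044548) and PKM (ENSBTAG00000001601, 19137899 to 19165177), both on the minus strand. The minus strand also carries PGM1 (ENSBTAG00000019011) on chromosome 3 from 81911178 to 81978206, FBP1 (ENSBTAG00000009733) on chromosome 8 from 81068225 to 81099411, PCK1 (ENSBTAG00000001936) on chromosome 13 from 58609003 to 58650153, and PDHA1 (ENSBTAG00000019852) on chromosome X from 123763234 to 123786124.

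**Figure D1:**
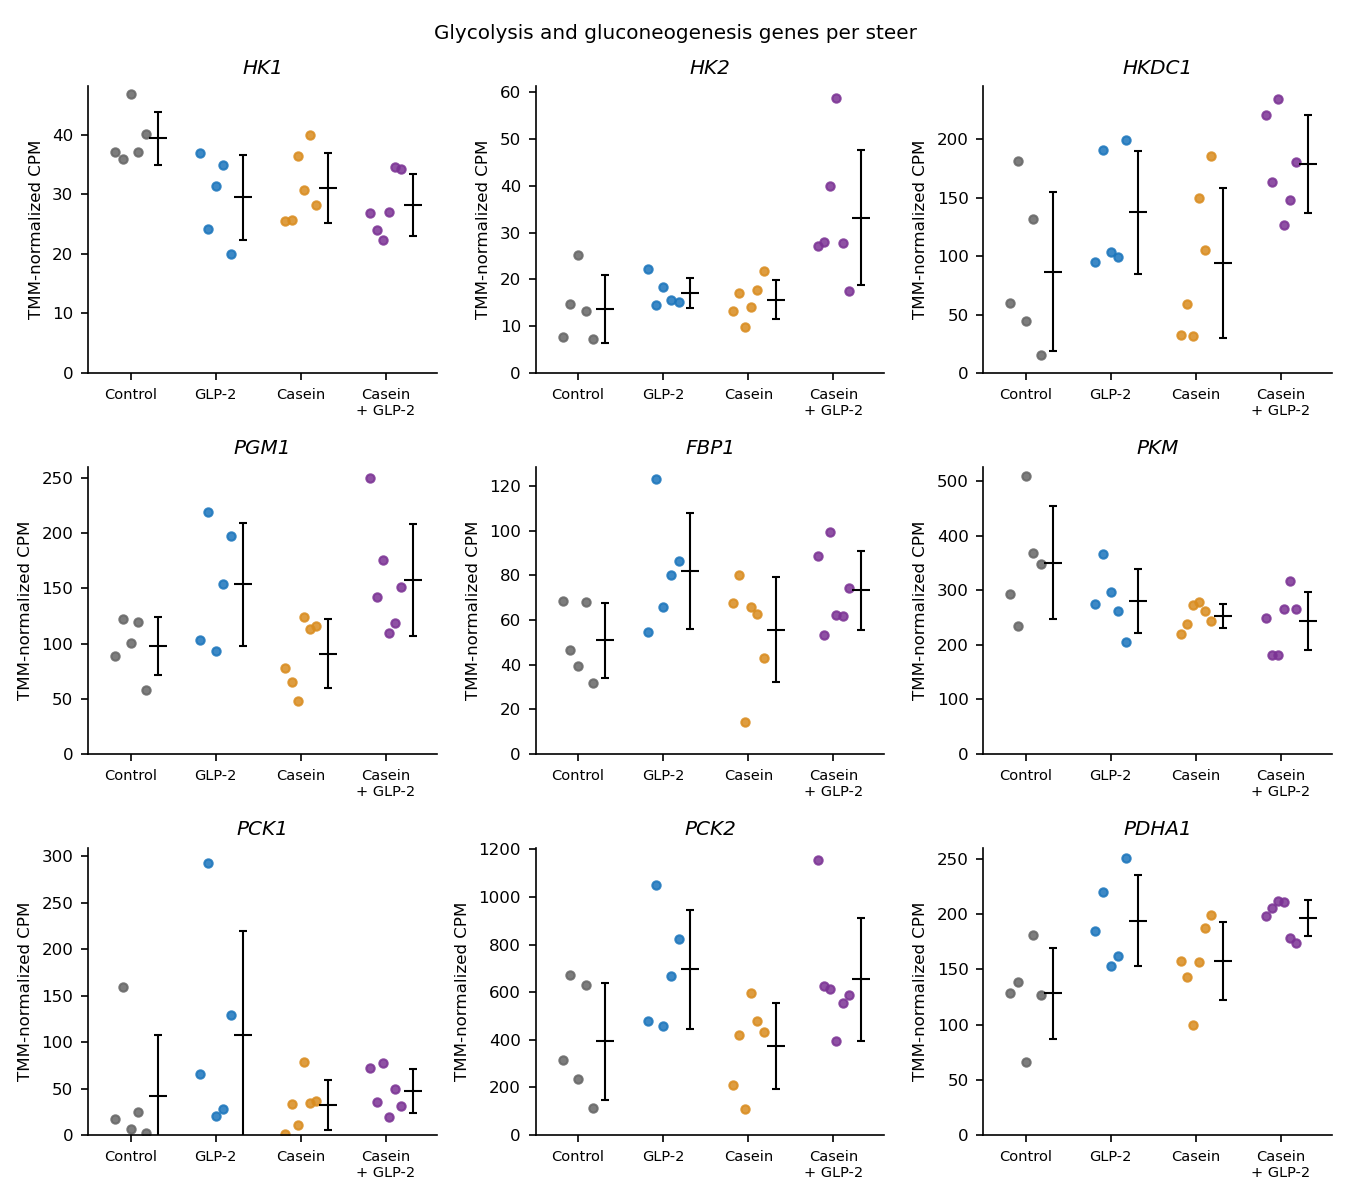
TMM-normalized CPM (y axis, from 0) of each enzyme in the 22 steers by treatment, each point 1 steer, with the mean (bar) and SD (whiskers, cut off at 0 for PCK1) beside the points. HK2 was highest in casein + GLP-2 steers, where 5 of 6 steers lay above all 16 other steers, whereas the treatments overlapped widely for PCK1 and PKM.

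With GLP-2, 3 of the 9 enzymes rose and 0 fell (edgeR's quasi-likelihood test, Benjamini-Hochberg adjustment over all genes, threshold 0.05). PGM1 was 1.68-fold higher, HK2 1.76-fold and PDHA1 1.36-fold. Of all 13928 genes tested, 13.5% were called, 5.13% as higher and 8.37% as lower. PCK2, FBP1 and HKDC1 had adjusted p between 0.05 and 0.1, and 26.1% of all genes and 6 of the 9 were at 0.1 or below. Without adjustment, 7 of the 9 had p of at most 0.05, against 34.6% of all genes, and the DESeq2 Wald test called 4, adding PCK2 (adjusted p = 0.0255), and 22.4% of all genes. The median log2 fold change of the 9 was 0.75, beside 0.0079 over all genes tested. The study's paper names HK2, HKDC1, PGM1, PCK2 and PDHA1 under this pathway, which tended to be upregulated with GLP-2 there. The 9 were chosen with earlier results of these data known. Their shares and median are therefore no test of the pathway. Leaving out 1 steer in turn moved the number of called enzymes between 1 and 6 and that of all called genes between 634 (without casein + GLP-2 replicate 3) and 3516 (without control replicate 2).

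Steers had been assigned to treatments within 6 blocks of body weight. With the block in the edgeR fit, 0 of the 9 and 4.95% of all genes were called, and 7 of the 9 had p of at most 0.05 without adjustment, against 33.2% of all genes. PGM1 then had a log2 fold change of 0.71 (adjusted p = 0.0556), HK2 0.82 (adjusted p = 0.0580) and PDHA1 0.46 (adjusted p = 0.0677). When control replicate 5 and casein replicate 1 were left out, 0 of the 9 and 22 genes in all (0.156%) were called, and 6 of the 9 had p of at most 0.05 without adjustment, against 25.4% of all genes. Among the enzymes not called, the log2 fold changes without these 2 libraries were 0.73 for PCK1, 0.63 for PCK2, 0.59 for HKDC1, 0.49 for FBP1, −0.23 for PKM and −0.32 for HK1.

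HK2, the insulin-responsive hexokinase of muscle and fat, was highest in casein + GLP-2 steers. It had 7.77, 14.6, 25.1, 13.3 and 7.29 CPM in control steers and 22.1, 14.4, 18.4, 15.5 and 15.1 CPM in GLP-2 steers. Casein steers had 13.2, 17.1, 9.76, 14.2, 17.8 and 21.8 CPM, and casein + GLP-2 steers 27.1, 27.9, 40.0, 58.7, 27.7 and 17.5 CPM. The 5 highest steers of the study were all casein + GLP-2 steers, and the sixth, replicate 6, lay among the casein steers. Over both infusions, 6 of 11 BSA steers were below every GLP-2 steer. The log2 fold change for GLP-2 against BSA was 0.82 (SE 0.25, adjusted p = 0.0360), and 0.70 (adjusted p = 0.115) without the 2 libraries. The call was lost in 8 of 22 edgeR fits that left out 1 steer (casein replicates 1 and 3, casein + GLP-2 replicates 1, 2, 3 and 4, control replicates 1 and 5), with log2 fold changes down to 0.60 and adjusted p up to 0.0811.

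HKDC1 encodes a hexokinase-like protein with weak glucose phosphorylating activity, and was the most abundant of the 3 hexokinases. Control steers had 59.9, 181, 44.2, 132 and 15.7 CPM, and GLP-2 steers 94.6, 191, 104, 99.3 and 199 CPM. Casein steers ranged from 31.7 to 186 CPM (median 82.1) and casein + GLP-2 steers from 127 to 234 CPM (median 172). The lowest GLP-2 steer was above 6 of 11 BSA steers, while the other 5 BSA steers overlapped with them. GLP-2 against BSA gave a log2 fold change of 0.84 (SE 0.34, adjusted p = 0.0887). It passed the threshold without casein replicate 6 (1.00, adjusted p = 0.0412) or without control replicate 2 (0.99, adjusted p = 0.0370). In the other 20 edgeR fits without 1 steer it did not, with log2 fold changes down to 0.71 and adjusted p up to 0.148.

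HK1, the hexokinase of most tissues, had lower means with GLP-2 than with BSA, without passing the threshold. Control steers had 37.1, 35.9, 46.8, 37.0 and 40.2 CPM, and GLP-2 steers 37.0, 24.2, 31.3, 34.9 and 19.99 CPM. The range was 25.5 to 40.0 CPM in casein steers (median 29.5) and 22.3 to 34.6 CPM in casein + GLP-2 steers (median 27.0). No steer of the other treatments exceeded control replicates 3 and 5. Its log2 fold change for GLP-2 was −0.28 (SE 0.13, adjusted p = 0.125 in edgeR, 0.0390 before adjustment).

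PGM1, which interconverts glucose 1-phosphate and glucose 6-phosphate between glycogen and glycolysis, gave the smallest p of the 9. It had 88.4, 123, 100.2, 119.7 and 57.6 CPM in control steers, and 103, 219, 93.0, 154 and 198 CPM in GLP-2 steers. In casein steers it ranged from 48.2 to 124 CPM (median 95.6), and in casein + GLP-2 steers from 109.8 to 249.7 CPM (median 146). Of the 11 GLP-2 steers, 7 were above every BSA steer, and 5 of 11 BSA steers were below every GLP-2 steer. GLP-2 raised it by 0.75 on the log2 scale (SE 0.20, adjusted p = 0.0246), and the call held in each of the 22 edgeR fits without 1 steer (adjusted p from 0.0116 to 0.0480). Without both libraries of low enterocyte score it was 0.63 (adjusted p = 0.0784).

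PDHA1, the catalytic alpha subunit of pyruvate dehydrogenase, had 129, 139, 66.2, 181 and 127 CPM in control steers. GLP-2 steers had 185, 220.2, 153, 162 and 251 CPM. Its range in casein steers was 99.7 to 199.5 CPM (median 157), and in casein + GLP-2 steers 174 to 212 CPM (median 202). The latter were close together (196 ± 16.2 CPM, SD), and 5 of 11 GLP-2 steers were above every BSA steer. With GLP-2 it rose by 0.45 on the log2 scale (SE 0.15, adjusted p = 0.0472 in edgeR), near the threshold. It stayed below 0.05 in 6 of 22 edgeR fits without 1 steer (casein replicates 5 and 6, control replicates 2 and 4, GLP-2 replicates 4 and 5), and in the other 16 the adjusted p lay between 0.0513 and 0.0848. Without both libraries of low enterocyte score, the adjusted p was 0.116 at a log2 fold change of 0.42. The call also ended with upper quartile scaling (0.38, adjusted p = 0.0599 in edgeR) and with no filter on low counts (0.44, adjusted p = 0.0660 in edgeR).

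PCK2, the mitochondrial phosphoenolpyruvate carboxykinase, had 315, 671, 237, 631 and 115 CPM in control steers and 479.97, 1050.1, 456, 666 and 824 CPM in GLP-2 steers. Levels in casein steers ranged from 109 to 594 CPM (median 426), and in casein + GLP-2 steers from 396 to 1153 CPM (median 599.6). All 11 GLP-2 steers were above the 5 lowest BSA steers, and 3 were above the highest. Its log2 fold change was 0.84 (SE 0.29, adjusted p = 0.0553 in edgeR). It passed the threshold without casein replicate 4 (0.89, adjusted p = 0.0417), control replicate 2 (0.95, 0.0247), control replicate 4 (0.91, 0.0375) or GLP-2 replicate 4 (0.89, 0.0459). In the other 18 edgeR fits without 1 steer it did not, with log2 fold changes down to 0.70 and adjusted p up to 0.108.

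PCK1, the cytosolic form of the same enzyme and a classic gluconeogenic gene of liver and kidney, varied most between steers. Control steers had 17.7, 159, 6.67, 24.9 and 2.09 CPM, and GLP-2 steers 65.4, 293, 20.9, 27.8 and 129.5 CPM. Casein steers ranged from 1.33 to 78.7 CPM (median 33.9) and casein + GLP-2 steers from 19.9 to 77.9 CPM (median 42.4). Although its log2 fold change of 1.05 was larger than that of any other of the 9, its SE was 0.62 and its adjusted p 0.228. Control replicate 2 held the highest BSA value, and without it the log2 fold change was 1.64 (adjusted p = 0.0447 in edgeR). Without GLP-2 replicate 3, it was 0.52 (adjusted p = 0.555).

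FBP1, fructose 1,6-bisphosphatase, had 68.3, 46.6, 39.6, 67.9 and 31.8 CPM in control steers and 54.7, 123, 65.6, 80.3 and 86.3 CPM in GLP-2 steers. Casein steers ranged from 14.4 to 80.0 CPM (median 64.4), with replicate 3 far below the rest, and casein + GLP-2 steers from 53.2 to 99.5 CPM (median 68.2). For FBP1 the log2 fold change with GLP-2 was 0.55 (SE 0.22, adjusted p = 0.0849). PKM, the pyruvate kinase of muscle and most other tissues, had 294, 235, 509.8, 368 and 349 CPM in control steers and 275, 367, 296, 262 and 205 CPM in GLP-2 steers. Casein steers ranged from 221 to 278 CPM (median 252) and casein + GLP-2 steers from 181 to 318 CPM (median 257). GLP-2 against BSA gave −0.19 for PKM (SE 0.16, adjusted p = 0.388, approximate 95% interval −0.50 to 0.11).

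**Figure D2:**
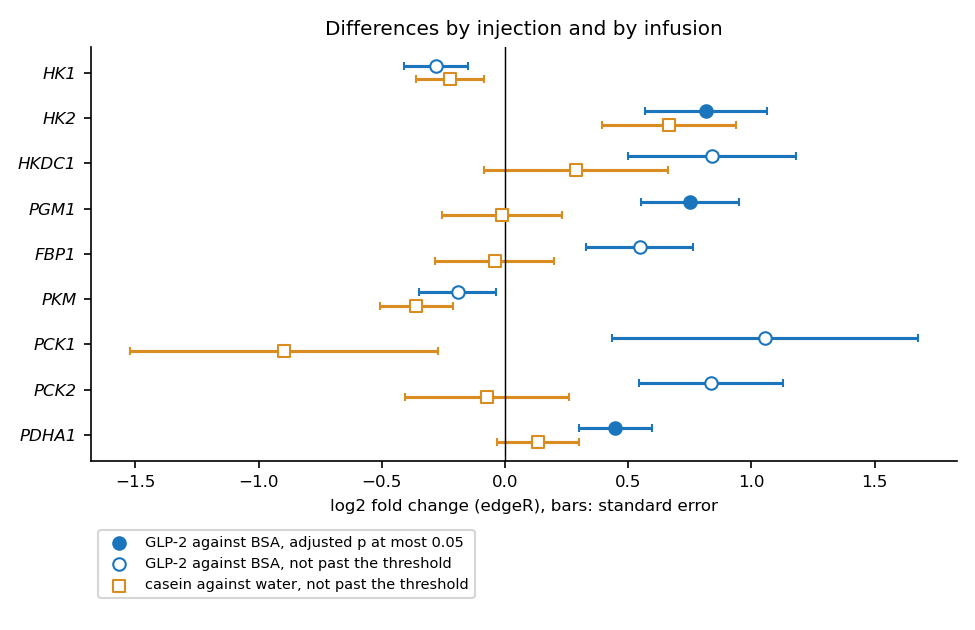
Log2 fold change (x axis) of each enzyme for GLP-2 against BSA (circles) and casein against water (squares), with the SE as whiskers, from edgeR. Filled symbols passed an adjusted p of 0.05, which only PGM1, HK2 and PDHA1 did, with GLP-2.

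A ratio of a pair of mRNAs in the same library does not depend on how libraries are scaled. Ratios of FPKM were compared between injections by a 2-sided permutation test (100000 resamples), with adjustment over 10 tests. The log2 ratio of HK2 to HK1 was 0.35 ± 0.74 with GLP-2 and −0.70 ± 0.66 with BSA (SD, n = 11 each), a difference of 1.05 (p = 0.00175, adjusted p = 0.0175). HK1 thus exceeded HK2 in the mean of BSA steers, and HK2 exceeded HK1 in the mean of GLP-2 injected steers pooled over both infusions. By treatment, only casein + GLP-2 steers had a mean above 0 (0.77). The mean was −0.15 in steers given water and GLP-2, −0.40 in casein steers and −1.06 in control steers. The log2 ratio of HKDC1 to HK1 was 3.12 ± 0.72 with GLP-2 and 1.70 ± 1.26 with BSA (difference 1.42, permutation p = 0.00405, adjusted p = 0.0202). Both differences kept an adjusted p of at most 0.05 in each of the 22 repeats without 1 steer, and without both libraries of low enterocyte score (0.96 and 1.08, adjusted p = 0.0455 and 0.0476). At a fixed enterocyte score, however, the fitted log2 fold changes of counts were −0.051 for HKDC1, −0.18 for HK1 and 0.66 for HK2, and the ratios themselves were not fitted with that score.

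HKDC1 made up 71.2 ± 14.7% of the summed hexokinase FPKM, HK1 16.1 ± 11.7% and HK2 12.7 ± 5.89% (SD, n = 22). In control steers the share of HKDC1 ranged from 32.9 to 83.3%, and in casein + GLP-2 steers from 63.4 to 83.7%. The ratio of HK2 to HKDC1 differed by −0.37 between injections (adjusted p = 0.482 by permutation), within the spread of steers.

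FBP1 and PKM act at opposite directions of the chain. Their log2 ratio was −0.83 ± 0.46 with GLP-2 and −1.62 ± 0.86 with BSA (difference 0.79, permutation p = 0.0107, adjusted p = 0.0357). That adjusted p rose above 0.05 in 9 of 22 repeats without 1 steer (casein + GLP-2 replicates 1, 2, 3 and 6, control replicates 3 and 5, GLP-2 replicates 3, 5 and 6), to 0.0778 at most. It was 0.0455 without both libraries of low enterocyte score, and 0.111 with the body weight block (limma on the ratios, difference 0.81). At a fixed follicle score, the fitted log2 fold changes of counts were 0.17 for FBP1 and 0.12 for PKM. At a fixed enterocyte score they were 0.26 and −0.068, and the ratio itself was not fitted with either score. PKLR, the liver-type pyruvate kinase, was higher with GLP-2 (log2 fold change 0.83, adjusted p = 0.0411 in edgeR), and a ratio of FBP1 to PKLR was not tested. PCK1 stayed below PCK2 in all 22 steers, and their log2 ratio differed by 0.61 between injections, from −4.46 ± 1.45 with BSA to −3.85 ± 0.89 with GLP-2 (adjusted p = 0.482 by permutation). Without both libraries that difference was 0.093, and that of HK2/HKDC1 −0.12.

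**Figure D3:**
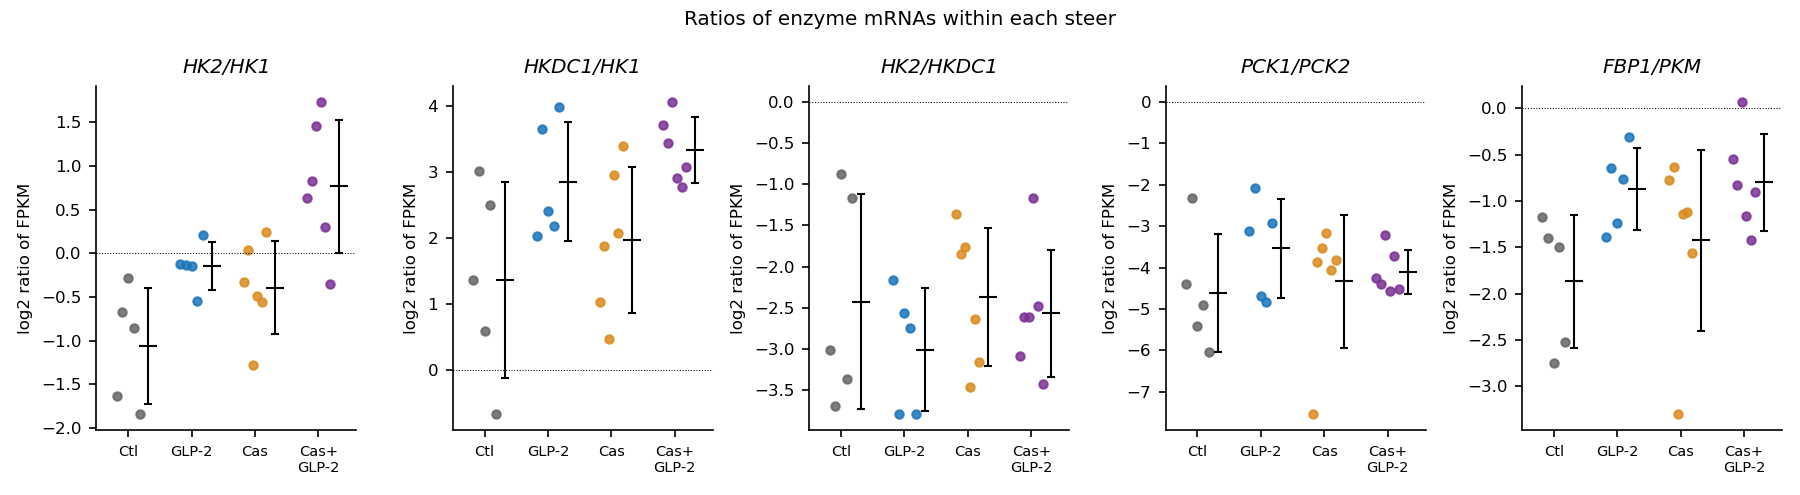
Log2 ratio of FPKM (y axis) of 5 pairs of enzymes within each library, each point 1 steer, by treatment (Ctl, control; Cas, casein), with the mean and SD beside the points. HK2/HK1 and HKDC1/HK1 were higher with GLP-2 in means over both infusions, by 1.05 and 1.42.

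With casein infusion, edgeR called 0 of the 9, and 0% of 14096 genes tested were called. DESeq2 called 0 of the 9 and 0.0355% of all genes. Without adjustment, 2 of the 9 had p of at most 0.05, against 3.36% of all genes. HK2 was the higher (log2 fold change 0.67, SE 0.27, adjusted p = 0.994 in edgeR, 0.0224 before adjustment), with 24.4 ± 13.6 CPM in casein and 15.4 ± 5.56 CPM in water steers. PKM was the lower (−0.36, SE 0.15, adjusted p = 0.994 in edgeR, 0.0225 before adjustment), with 248 ± 39.3 CPM in casein and 316 ± 87.2 CPM in water steers. Among the other 7, the log2 fold changes ran from −0.90 (SE 0.62) for PCK1 to 0.29 (SE 0.37) for HKDC1. PGM1, FBP1 and PCK2 lay within 0.1 of 0, with approximate 95% intervals of −0.49 to 0.47, −0.52 to 0.43 and −0.72 to 0.58. The ratio of HK2 to HK1 differed by 0.79 between casein and water (permutation p = 0.0301, adjusted p = 0.0752), and without casein replicate 3 by 0.92 (adjusted p = 0.0283). The other ratios had adjusted p of at least 0.482 by permutation.

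In the edgeR model of 4 treatments, 0 of the 9 enzymes and 0% of 15086 genes were called in any of the contrasts. For GLP-2 against control, 4 of the 9 had p of at most 0.05 without adjustment (HK1, PGM1, FBP1 and PDHA1), against 13.9% of all genes, and DESeq2 called 0 of the 9 and 2.04% of all genes. For casein + GLP-2 against casein, 2 did (HK2 and PGM1), against 24.1% of all genes, and DESeq2 called HK2 alone of the 9 and 6.55% of all genes. For casein against control it was PKM alone, against 5.66%, for casein + GLP-2 against GLP-2 HK2 alone, against 2.64%, and for the interaction 0, against 4.28%. In these last 3 contrasts DESeq2 called 0 of the 9, and 0.0663%, 0.0332% and 0.0133% of all genes.

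The values of HK2 were set side by side for both infusions. GLP-2 against control gave a log2 fold change of 0.33 (SE 0.32, adjusted p = 0.653), and casein + GLP-2 against casein 1.08 (SE 0.30, adjusted p = 0.118 in edgeR and 0.0254 in DESeq2). Casein against control gave 0.20 (SE 0.31), and casein + GLP-2 against GLP-2 0.95 (SE 0.31, adjusted p = 0.995 in edgeR). The test of the difference itself, the interaction, gave 0.76 (SE 0.44, adjusted p = 0.996 in edgeR, 0.0990 before adjustment), so it did not pass the threshold. PGM1 was more alike, with 0.65 (SE 0.30) during water and 0.80 (SE 0.27) during casein. PDHA1 gave 0.60 (SE 0.22) and 0.32 (SE 0.20), and the interaction of both had p above 0.05. PKM gave −0.48 (SE 0.20, adjusted p = 0.840) for casein against control.

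The libraries also differed in markers of other cells, in the direction of the injection. Of the B cell follicle markers tested, 16 of 16 were lower with GLP-2 (14 called, or 87.5% beside 13.5% of all genes, median log2 fold change −3.70). Their summed levels were 121 to 2762 CPM in BSA steers and 82.8 to 217 CPM in GLP-2 steers. PAX5 was at 0 counts in 3 BSA and 6 GLP-2 steers, FCRLA in 1 and 3, and FCER2 and TNFRSF13C in 1 GLP-2 steer each. Of the villus enterocyte markers, 23 of 23 were higher (3 called, or 13% beside 13.5% of all genes, median 1.02), with SLC2A5 at 0 in 3 BSA steers. Of the proliferation markers, 20 of 20 were lower (8 called, or 40% beside 13.5% of all genes, median −0.67), none at 0. Their summed levels were 396 to 1689 CPM in BSA and 352 to 1240.0 CPM in GLP-2 steers. Smooth muscle markers were lower in 9 of 10 (0 called, 4 without adjustment, 2 by DESeq2), with 79.3 to 1567 CPM in BSA and 67.0 to 917 CPM in GLP-2 steers. Stroma markers were lower in 10 of 10 (0 called, 1 without adjustment, 1 by DESeq2), and of the other lists 1 of 12 T cell markers (CD5, lower), 1 of 10 macrophage markers (MRC1, higher), 0 of 8 crypt stem cell markers (0 without adjustment and by DESeq2) and 0 of 5 goblet cell markers (1 without adjustment, 0 by DESeq2) were called. LGR5 was at 0 in 6 BSA and 4 GLP-2 steers, and ASCL2, SOX9 and ZNRF3 in 1 BSA steer each. LMOD1 of smooth muscle was at 0 in 1 GLP-2 steer. Red cell genes summed to 0.24 to 3.10 CPM, and SLC4A1 was at 0 in all 22 steers. With casein, 17 of 23 enterocyte markers were higher and 16 of 17 follicle and 10 of 10 smooth muscle markers lower, with 0 called by edgeR (0, 1 and 0 without adjustment, 0, 2 and 0 by DESeq2). With the body weight block, 11 of the follicle, 0 of the enterocyte and 0 of the proliferation markers were called for GLP-2 (14, 17 and 10 without adjustment). Of all genes, 4.95% were called in that fit (33.2% without adjustment), and MRC1 was not called (adjusted p = 0.0509). Without the 2 libraries of low enterocyte score, 8 follicle, 0 enterocyte and 0 proliferation markers were called (15, 10 and 9 without adjustment). Of all genes, 0.156% were called there (25.4% without adjustment), and CD5 (adjusted p = 0.0624) and MRC1 (0.128) were not called. The part of any of these cells in the differences of the enzymes was not tested.

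Several of the 9 enzymes followed these markers from steer to steer. Correlations were taken over 22 steers after treatment means were removed, with 2-sided permutation within treatments and adjustment over 72 relations. HKDC1 correlated with the enterocyte score at r = 0.97 (rho = 0.95, r = 0.95 without the 2 steers of the farthest scores). For PCK2, r was 0.90 (rho = 0.93, r = 0.85 without the 2 steers). PCK1 gave r = 0.89 (rho = 0.88, r = 0.84 without them), and PGM1 r = 0.78 (rho = 0.82, r = 0.75 without them). For these 4 the permutation p was at most 6e-05 for r (adjusted at most 0.000480) and 1e-05 for rho, the smallest that 100000 resamples can give.

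PDHA1 had r = 0.57 with the enterocyte score (permutation p = 0.0389, adjusted p = 0.0831), and r = 0.70 without the 2 steers. Its rho was 0.68 (permutation p = 0.00168, adjusted p = 0.00672). FBP1 had r = 0.42 (permutation p = 0.107, adjusted p = 0.183), rho = 0.49 (permutation p = 0.0453) and r = 0.41 without the 2 steers. HK2 had r = 0.26 (permutation p = 0.362, adjusted p = 0.466), rho = 0.26 (permutation p = 0.300) and r = 0.072 without the 2 steers. HK1 and PKM had r of −0.29 each (permutation p = 0.151 and 0.283, adjusted p = 0.247 and 0.384), rho of −0.33 and −0.29 (permutation p = 0.128 and 0.208), and r of −0.30 and −0.16 without the 2 steers.

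Other marker scores also went with the enzymes. With the smooth muscle score, HK1 had r = 0.56 (permutation p = 0.00256, adjusted p = 0.0108), rho = 0.61 (permutation p = 0.00199) and r = 0.58 without the 2 farthest steers. With the follicle score, HK1 had r = 0.41 (permutation p = 0.0169, adjusted p = 0.0469), rho = 0.42 (permutation p = 0.0355) and r = 0.39 without the 2 farthest steers. Against the follicle score, PCK2 had r = −0.80 (permutation p = 0.000350, adjusted p = 0.00185), rho = −0.84 (permutation p = 0.000110) and r = −0.71 without the 2 farthest. HKDC1 had r = −0.79 with it (permutation p = 0.000430, adjusted p = 0.00206), rho = −0.88 (permutation p = 1e-05) and r = −0.74 without them. PDHA1 had r = −0.66 (permutation p = 0.0127, adjusted p = 0.0367), rho = −0.64 (permutation p = 0.00252) and r = −0.65 without them, and PGM1 r = −0.64 (permutation p = 0.000290, adjusted p = 0.00174), rho = −0.72 (permutation p = 0.000120) and r = −0.58. The r of PCK1 was also −0.64 but missed the threshold (permutation p = 0.0190, adjusted p = 0.0506), with r = −0.61 without the 2 farthest. Its rho of −0.78 passed (permutation p = 0.000130, adjusted p = 0.000669).

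With the proliferation score, PCK2 (r = −0.82), HKDC1 (−0.79), PGM1 (−0.78) and PCK1 (−0.68) passed the threshold (permutation p at most 0.00353, adjusted p at most 0.0137). Their rho were −0.86, −0.79, −0.76 and −0.65 (permutation p at most 0.00586), and their r without the 2 farthest steers −0.82, −0.77, −0.77 and −0.66. HKDC1 and PCK1 had r of −0.70 and −0.65 with the smooth muscle score (permutation p = 0.00499 and 0.00705, adjusted p = 0.0171 and 0.0221), rho of −0.69 and −0.65 (permutation p = 0.00473 and 0.00365), and r of −0.59 and −0.60 without the 2 farthest. HK2 passed with none of the 4 scores (r from −0.25 to 0.26, adjusted p at least 0.466 by permutation), and neither did FBP1 or PKM.

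**Figure D4:**
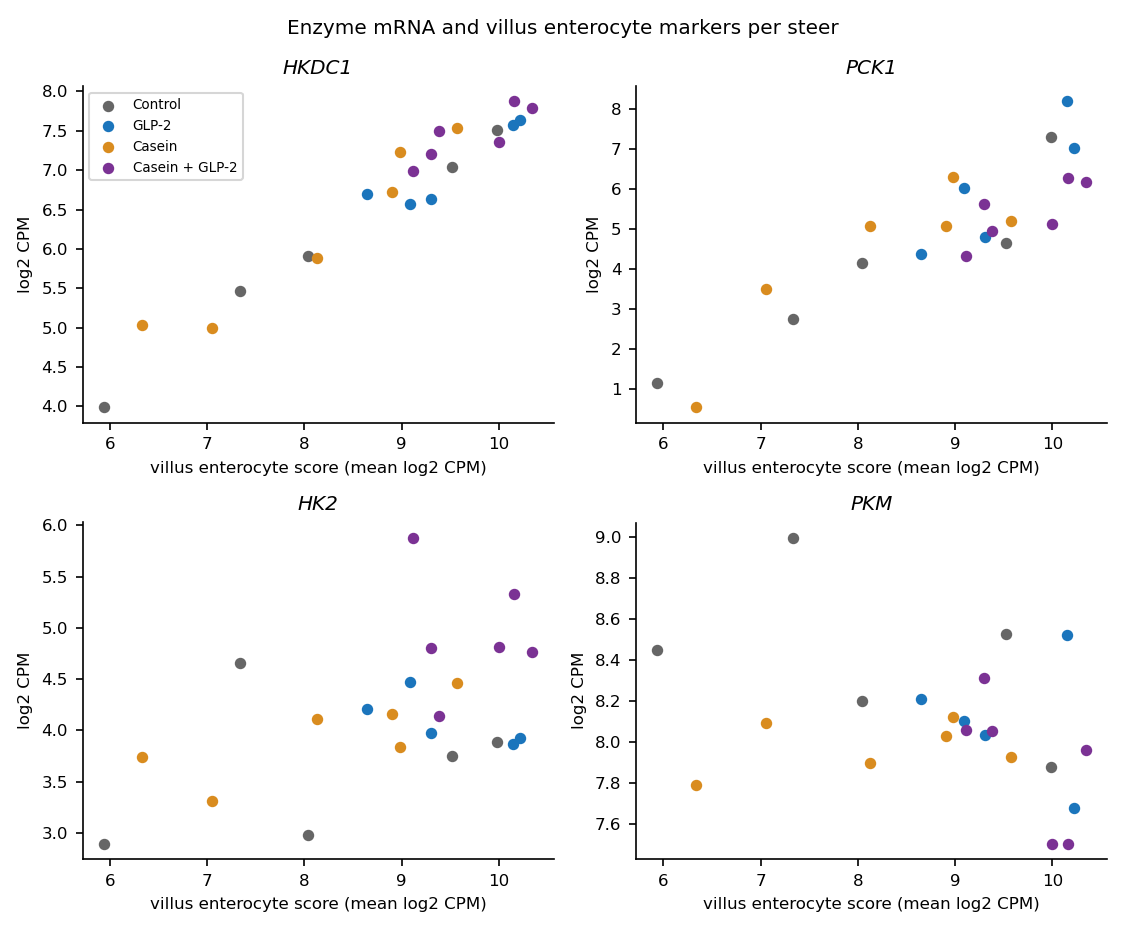
Log2 CPM of HKDC1, PCK1, HK2 and PKM (y axes, which do not start at 0) against the villus enterocyte score (x axis, mean log2 CPM of the markers), each point 1 steer, coloured by treatment. HKDC1 and PCK1 are higher in steers with a higher score (r = 0.97 and 0.89 with treatment means removed), while HK2 and PKM scatter.

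Fits with a score as covariate gave the enzymes' differences between injections at a fixed score. With the enterocyte score, the log2 fold change of HKDC1 was −0.051 in place of 0.84, that of PCK2 0.053 in place of 0.84, that of PCK1 −0.49 in place of 1.05 and that of PGM1 0.24 in place of 0.75. HK2 had 0.66 (adjusted p = 0.997 in edgeR, 0.0412 before adjustment) in place of 0.82, and PDHA1 0.20 in place of 0.45. With the follicle score, HK2 had 0.69 (adjusted p = 0.9997 in edgeR, 0.0388 before adjustment), PGM1 0.40, PCK2 0.19, PDHA1 0.12 and HKDC1 0.085. In either fit, 0 of the 9 and 0 genes in all were called, and HK2 alone of the 9 had p of at most 0.05 without adjustment. Both scores themselves moved with the injection.

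The enzymes were also compared with each other over the 22 steers, in the same family of 72 relations. HKDC1, PCK1, PCK2 and PGM1 went together. Their lowest r was 0.64, for PCK1 with PGM1 (permutation p = 0.00381, adjusted p = 0.0137; rho = 0.73, permutation p = 0.00102; r = 0.72 without the 2 farthest steers), and their highest 0.90, for PCK2 with HKDC1 (permutation p = 1e-05, adjusted p = 0.000180; rho = 0.87, permutation p = 1e-05; r = 0.84 without them). FBP1 also went with PCK2 (r = 0.70, permutation p = 0.00254, adjusted p = 0.0108, rho = 0.57, permutation p = 0.0131, r = 0.47 without the 2 farthest) and with PGM1 (r = 0.62, permutation p = 0.00379, adjusted p = 0.0137, rho = 0.55, permutation p = 0.0144, r = 0.66 without them). PKM and HK1 gave r = 0.56 (permutation p = 0.00651, adjusted p = 0.0213), rho = 0.56 (permutation p = 0.00791) and r = 0.54 without the 2 farthest steers. PDHA1 and HK1 gave r = −0.52 (permutation p = 0.00764, adjusted p = 0.0229), rho = −0.53 (permutation p = 0.0208) and r = −0.46 without them. With HKDC1, PCK2, PCK1 and PGM1, PDHA1 had r of 0.55, 0.56, 0.41 and 0.49 (adjusted p = 0.103, 0.0831, 0.248 and 0.0831 by permutation). The rho of these pairs were 0.67, 0.53, 0.59 and 0.52 (adjusted p = 0.0111, 0.0453, 0.0349 and 0.0527 by permutation). HK2 reached at most r = 0.28 with any of the other 8, with HKDC1 (permutation p = 0.314, adjusted p = 0.411), rho = 0.15 (permutation p = 0.554) and r = 0.093 without the 2 farthest steers.

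The genes most like each enzyme over the 22 steers, by r of log2 CPM with treatment means removed, are given as a description. HKDC1 was nearest to RETSAT and TUBAL3 (both r = 0.97) and SEC16B (0.96). PCK2 was nearest to NIPSNAP1, SPINT1 (both 0.97) and MPP1 (0.96), PGM1 to CYB5R3 (0.96), ACAA1 (0.94) and PAFAH2 (0.93), and PCK1 to ENPP7, PDZK1 (both 0.94) and KIF16B (0.93). FBP1 was nearest to RASSF7, LSR (both 0.92) and UQCRC1 (0.90), and PDHA1 to CASK, RBM47 (both 0.91) and MCU (0.89), a mitochondrial calcium channel. HK2 reached lower values, with ELP6 (0.80) and N4BP3 (0.75). HK1 reached 0.84 with GNAI2 and 0.83 with SMIM32 and IL1R1, and PKM 0.80 with SYNGR2, 0.78 with SLC46A2 and 0.77 with LIMD2.

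Other genes of the pathway were counted by lists. Of 16 further glycolytic genes tested, 1 was called with GLP-2 (6.25%, against 13.5% of all genes), and the median was 0.014. The gene called was PKLR, the liver-type pyruvate kinase, which was higher (log2 fold change 0.83, adjusted p = 0.0411 in edgeR). Without adjustment 4 had p of at most 0.05, against 34.6% of all genes, and DESeq2 called 3, against 22.4%. PKLR at 0.83 stood beside PKM at −0.19, and the difference between both pyruvate kinases was not tested. LDHB, a lactate dehydrogenase subunit, was at −0.53 (adjusted p = 0.0542). Of 9 further gluconeogenic genes, 0 were called by edgeR (2 without adjustment, 0 by DESeq2, median 0.34), with SLC37A4, the glucose 6-phosphate translocase, at 0.58 (adjusted p = 0.0811) and PC, pyruvate carboxylase, at 0.87 (adjusted p = 0.101).

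Of 13 genes of pyruvate dehydrogenase and its control, 2 were called (15.4%, near the 13.5% of all genes). These were PDP2, which rose by 0.96 (adjusted p = 0.0240), and PDP1, which rose by 0.47 (adjusted p = 0.0367), both phosphatases that switch the enzyme on. Of the 4 kinases that switch it off, 0 were called by edgeR (p from 0.311 to 0.559 without adjustment) or DESeq2, and the difference between phosphatases and kinases was not tested. The median of the list was 0.18. Of 19 genes of glycogen, galactose, fructose and pentose phosphate metabolism, 1 was called (5.26%, against 13.5% of all genes), and the median was 0.13. Without adjustment 7 had p of at most 0.05, against 34.6% of all genes, and DESeq2 called 2, against 22.4%. Of 12 regulators, 33.3% were called, against 13.5% of all genes, 3 as higher and 1 as lower. Without adjustment 8 had p of at most 0.05, against 34.6% of all genes, and DESeq2 called 5, against 22.4%. The lists, like the 9 enzymes, were chosen with earlier results of these data known, so their shares are no test. PPARGC1A (0.94, adjusted p = 0.0186), a coactivator known to act on gluconeogenic genes, HNF4A (0.80, adjusted p = 0.0346) and PFKFB2 (0.95, adjusted p = 0.0438), which makes and breaks down fructose 2,6-bisphosphate, rose. MYC, a regulator of glycolytic genes and growth, was lower (−0.77, adjusted p = 0.0324). With the body weight block, PDP2 and PPARGC1A alone of the genes named in these lists were called (both adjusted p = 0.0482 in edgeR), and without the 2 libraries of low enterocyte score PPARGC1A alone (adjusted p = 0.0464).

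With casein, 0 genes of these lists were called by edgeR or DESeq2. Without adjustment, 2 glycolytic genes had p of at most 0.05, ENO1 (−0.30) and LDHB (−0.44), beside PFKFB2 (0.75) of the regulators and 1 gene of the glycogen, galactose, fructose and pentose phosphate list. The gluconeogenic and pyruvate dehydrogenase lists had 0, where MDH2 (−0.15), PC (0.34), PDP1 (0.32) and PDK4 (0.32) had the smallest p. GALM (0.36) and HNF4A (0.25) came second in their lists.

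**Figure D5:**
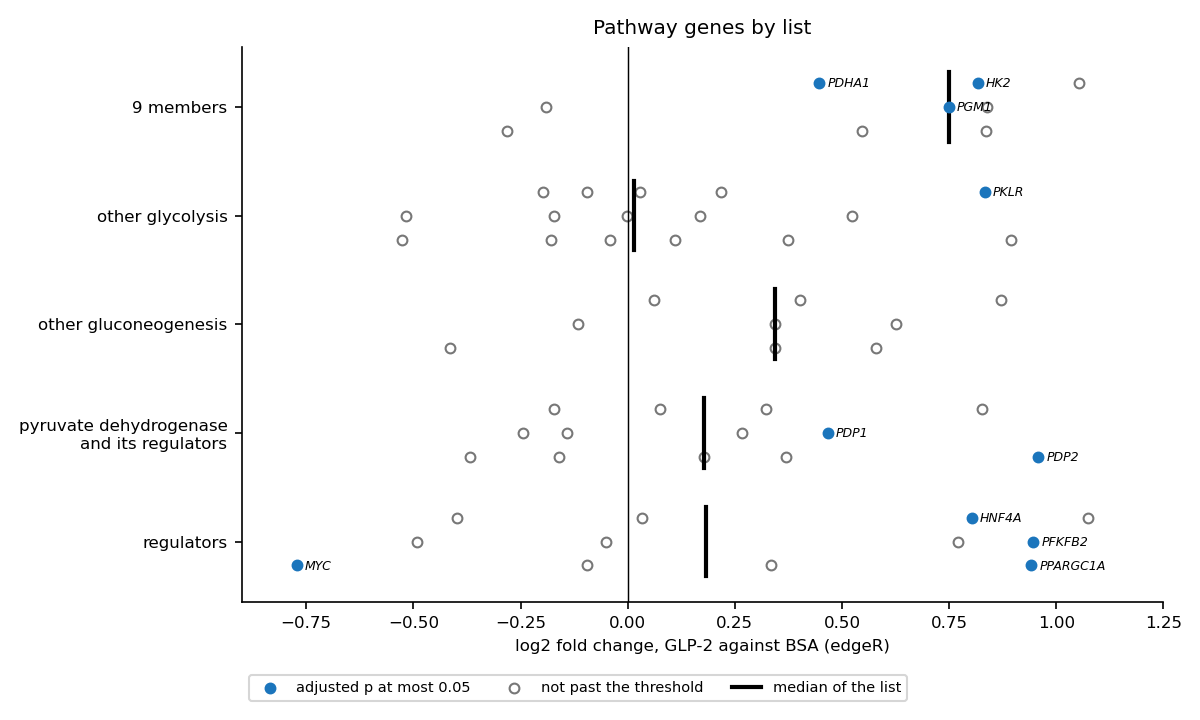
Log2 fold change for GLP-2 against BSA (x axis) of each gene tested in 5 lists (rows, genes set apart vertically only for legibility), with the median of each list as a bar. Filled points passed an adjusted p of 0.05 and are named, among them PDP1 and PDP2 on the right and MYC on the left.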

How the data were processed

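RNA-seq of scraped jejunal mucosa was used for 22 steers (poly-T selected, strand-specific libraries). The authors trimmed the reads with fastp, aligned them to ARS-UCD1.2 with HISAT2 (2.0.5), ran StringTie (1.3.3b) and counted reads per gene with featureCounts (1.5.0-p3), and the deposited counts are unnormalized. FPKM deposited beside them are these counts per gene length and library size, computed by the authors. The strand setting of the counting is not given in the sources used here. A control sample of low RNA integrity was not sequenced, and a further GLP-2 steer was not analysed here. The study's paper reports RNA integrity that varied widely between samples, and integrity was not a term in any fit here.

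In R 4.3.3, counts were filtered by filterByExpr (minimum count 10), scaled by TMM and compared by edgeR 4.0.16 (quasi-likelihood test, Benjamini-Hochberg adjustment over all genes tested, threshold 0.05), pooled over the other factor or in a model of 4 treatments. SEs are the log2 fold change divided by the square root of F, and log2 CPM has a prior count of 2. FPKM ratios and correlations were tested by permutation (100000 resamples). Alternatives were DESeq2's size factors and the DESeq2 1.42.0 Wald test, upper quartile scaling, no filter, limma 3.58.1 on log2(FPKM + 1) and log2(FPKM + 0.1), a robust spread, covariates (the other factor, a follicle or an enterocyte score), a replicate block, and leaving out each steer. A single far-off steer was looked for by Dixon's test. The procedure was also run on simulated counts with changed genes drawn at random. These held no differences in cell makeup between libraries, so that run cannot speak to such differences.

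Replicate numbers are the body weight blocks of the randomized design. The main fit had no block, and values with it stand beside the calls it ended. The 30 same-block pairs of steers had correlations of their deviations from treatment means from −0.464 upward (mean 0.0331, 13 over 0.1), and 6 of 22 steers correlated best with their own number. Members and gene lists were chosen with earlier results of these data known. All 9 members are given. Of each other pathway list, the genes past the threshold with GLP-2 or casein are named, otherwise the 2 with the smallest p in each comparison, and for each member the 3 genes with the highest r, apart from a few that are not reported here. The symbols G6PC1, GCKR, SIK1, TROY, MUC2, FCGBP and ZG16 were not matched, and G6PC was matched.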

Additional observations from a re-analysis of the deposited data

Results flagged for a closer look

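In 56 sets of values of 1 treatment (each enzyme and each ratio in groups of 5 or 6 steers), 3 had a steer far from the others by Dixon's test, which chance gives in about 1 in 20 such sets. FBP1 in casein replicate 3 had a log2 CPM of 3.87, against 5.43 in the nearest casein steer. The log2 ratio of FBP1 to PKM in the same steer was −3.30, against −1.56 in the nearest. The log2 ratio of PCK1 to PCK2 in casein replicate 1 was −7.54, against −4.06 in the nearest, and this library held 16 counts of PCK1. Without casein replicate 3, the log2 fold change of FBP1 with GLP-2 was 0.41 (adjusted p = 0.113 in edgeR).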

How the results depend on the processing

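For GLP-2 against BSA, 3 of the 9 enzymes were called. The number was 5 with limma on log2(FPKM + 1) and on log2(FPKM + 0.1), which added HKDC1 and PCK2 (2092 and 1971 genes in all, against 1881). It was 2 (HK2 and PGM1) with upper quartile scaling (2097 genes in all) and with no filter (1515 in all). With the follicle score or the enterocyte score as covariate it was 0 (0 genes in all). With the 2 libraries of lowest enterocyte score left out it was 0 (22 genes in all). It was also 0 with the replicate block, where the adjusted p of PGM1, HK2 and PDHA1 were 0.0556, 0.0580 and 0.0677 and 689 genes were called in all. With the replicate block the FBP1/PKM difference was 0.81 (adjusted p = 0.111 in limma). DESeq2 called 1 enzyme, HK2, for casein + GLP-2 against casein, where edgeR called 0, and 891 genes in all, where edgeR called 0.

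Leaving out each steer in turn gave 1 to 6 called enzymes for GLP-2 against BSA, the 6 without control replicate 2. Log2 fold changes with casein then ranged from −0.19 to 0.11 for PGM1, −0.13 to 0.099 for FBP1 and −0.29 to 0.072 for PCK2, and the PCK1/PCK2 difference from −0.37 to 0.15, so the direction of these 4 was not settled. The FBP1/PKM difference with GLP-2 ranged from 0.62 to 0.89, and HK2/HK1 with casein from 0.65 to 0.92. Direction also turned with the follicle score for PKM with GLP-2 (0.12) and HKDC1 with casein (−0.013), and with the enterocyte score for HKDC1 (−0.051) and PCK1 (−0.49) with GLP-2. For GLP-2 against control, 5 of the 9 turned with the follicle score (HKDC1 to −0.57, PCK2 −0.36, FBP1 −0.048, PGM1 −0.031 and PKM 0.0082), and for casein + GLP-2 against casein 4 turned with the enterocyte score (PCK1 to −1.31, PCK2 −0.096, HKDC1 −0.050 and PKM 0.058). In each other contrast of the 4 treatments 0 to 2 turned with either score, as did PCK1 and PKM with the follicle score for casein + GLP-2 against casein and HKDC1 with the enterocyte score for GLP-2 against control. The cause of these changes was not tested. p-values rest on 10 to 12 steers a side for the injection and the infusion and on 5 or 6 for the 4 treatments, and low counts limit PCK1, with 16 counts in casein replicate 1.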
